A study of Mus musculus with 12 samples.

Results

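The comparison described here is that of 3 libraries labelled Pam3+TGFβ with 3 labelled Pam3, out of 12 libraries in 4 groups of 3, all from mouse fetal liver alveolar-like macrophages (FLAMs), which are cells grown out of fetal liver with GM-CSF. The 6 libraries were taken by their group labels and not by their values, though the comparison was chosen with earlier results of these data known. Every group had 30 ng/ml recombinant mouse GM-CSF in its medium. The Pam3 group received 25 ng/ml of Pam3CSK4 for 18 h, and the Pam3+TGFβ group received the same ligand and also had 20 ng/ml recombinant human TGFβ1. The labels do not say for how long TGFβ was present before Pam3. The other groups, untreated and TGFβ alone, serve as the reference for the TGFβ effect in cells without Pam3, and share no library with the comparison. Nothing in the labels says that libraries of a group came from separate cultures or mice, so the p-values measure the spread between these libraries, which may be technical. In bulk RNA, fewer cells of a kind and less RNA per cell cannot be told apart.

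TGFβ binds a complex of type II and type I receptor kinases, which phosphorylate SMAD2 and SMAD3, and these act with SMAD4 on target genes that include feedback inhibitors of the pathway. In the lung, autocrine TGFβ together with GM-CSF keeps alveolar macrophages in their identity. Pam3CSK4 is a synthetic triacylated lipopeptide that is sensed by TLR2 paired with TLR1 and signals through MyD88 to NF-kB and MAP kinases, which turn on cytokines and chemokines. Type I interferon, once made, acts back on the cell through STAT and IRF factors on genes with interferon-stimulated response elements.

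Levels are given per library as CPM, the read count scaled by library size, in the order of replicates 1, 2 and 3, with TMM scaling. A log2 fold change is Pam3+TGFβ over Pam3 unless another contrast is named, and comes with its standard error (SE). A gene rose or fell where the adjusted p of edgeR's quasi-likelihood test was under 0.05 over 14749 tested genes. The 6 libraries held 34417460 to 44374115 counts. Mitochondrial genes took 0.0874%, 0.387% and 0.511% of the counts with Pam3 and 0.0771%, 0.106% and 0.113% with Pam3+TGFβ, and a pair of ribosomal RNA-type transcripts, LOC118568312 and AY036118, ranged from 776 to 39369 CPM and from 502 to 26174 CPM among the libraries. These shares were lowest in replicate 1 of each group, and their part in the results was not tested beyond a fit with the mitochondrial share as a term, given with the other settings.

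The cells carried the markers of macrophages. Lyz2, which encodes lysozyme, stood at 31542, 30976 and 30520 CPM with Pam3 and 23372, 23542 and 22840 CPM with Pam3+TGFβ, and Ptprc, the pan-leukocyte antigen CD45, at 934, 912 and 846 against 810.4, 753 and 778 CPM. Cd68, Csf1r, Mertk, Fcgr1 and Adgre1 were detected in each of the 6 libraries, the lowest value among them being 81.4 CPM, for Fcgr1. Of the alveolar macrophage markers, Chil3, Car4, Itgax and Marco had 264 CPM (Itgax) as their lowest value, Pparg was at 86.5 CPM or more and Siglecf at 23.4 CPM or more, while Cidec stayed between 1.74 and 4.11 CPM. Ear1 and Fabp4 were low in 1 of the groups, as described with the identity genes. Markers of other cells were scarce: 10 of 20 granulocyte, mast cell and progenitor genes were at 3 counts or fewer in every library (Mpo, Elane, Retnlg and Kit among them), and so were 10 of 20 lymphoid, erythroid and megakaryocyte genes (Cd3e, Gata1, Klf1) and 11 of 20 stromal, endothelial, epithelial and hepatocyte genes (Col1a1, Sftpc, Apoa1). The summed level of these lists was 17 to 18.1, 13.8 to 14.7 and 9.83 to 12 CPM in the Pam3 libraries, and 19.1 to 20, 1.79 to 2.65 and 15.3 to 17.1 CPM with Pam3+TGFβ. Of 7 tested granulocyte, mast cell and progenitor genes, 2 rose, Cd34 among them, and 2 fell. That is 28.6% each, against 21.5% and 23.8% of all tested genes. The lymphoid, erythroid and megakaryocyte sum moved with the group through Ppbp and Pf4, which are chemokines of platelets that myeloid cells also make. Trac of this list went the other way: it had no count with Pam3 alone, while the Pam3+TGFβ libraries held 10, 10 and 15.

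TGFβ changed a large share of the tested genes in cells that had Pam3. Of 14749 genes, 6679 (45.3%) were called, 3165 higher (21.5%) and 3514 lower (23.8%), and the median log2 fold change of all tested genes was −0.002. The changes went deeper downward than upward: 1072 genes fell by at least 1 on the log2 scale while 690 rose by as much, and at 3 or more the counts were 276 and 97. For 116 of the genes that fell, every Pam3+TGFβ library held 3 counts or fewer, and for 40 of those that rose the same was true of every Pam3 library. In a principal component analysis of the 6 libraries, the first component took 71% of the variance and had all Pam3 libraries on one side and all Pam3+TGFβ libraries on the other. The groups did not overlap for 8129 of the 14749 tested genes (55.1%), among them 6518 of the 6679 called genes. Where each of the 12 libraries had to hold 10 counts or more, which leaves out genes near 0 in any group, the counts of called genes turned to 3261 higher and 2903 lower.

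**Figure D1:**
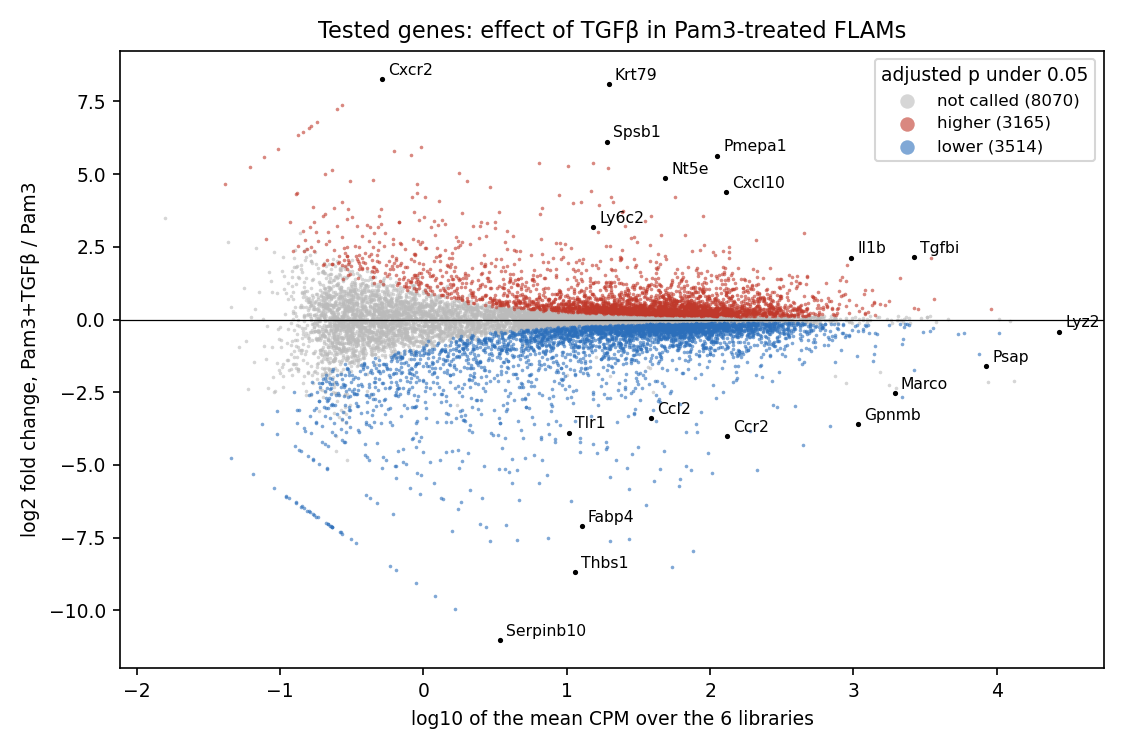
Log2 fold change of Pam3+TGFβ over Pam3 (vertical) against log10 of the mean CPM over the 6 libraries (horizontal) for the 14749 tested genes, colored by call at an adjusted p under 0.05. Called genes lie on both sides at all levels, and the genes with the largest fitted losses reach further from 0 than those with the largest gains; the slanted rows of points are genes with no count in 1 group, whose fitted value is no bound.

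Most of the called genes moved the same way without Pam3. In the libraries without Pam3, 7518 genes (51.0%) were called, 22.9% of the tested genes higher and 28.1% lower. Of the 3165 genes that rose with Pam3 present, 2122 (67.0%) also rose without it, 815 (25.8%) were not called there and 228 (7.2%) fell there. Of the 3514 that fell, 2772 (78.9%) also fell without Pam3, 695 (19.8%) were not called and 47 (1.34%) rose. The test of the difference itself, the interaction, called 2352 genes (15.9%): for 1516 (10.3%) the log2 effect of TGFβ was more positive with Pam3 than without, and for 836 (5.67%) more negative. With upper-quartile scaling this split was 1255 to 1097.

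**Figure D2:**
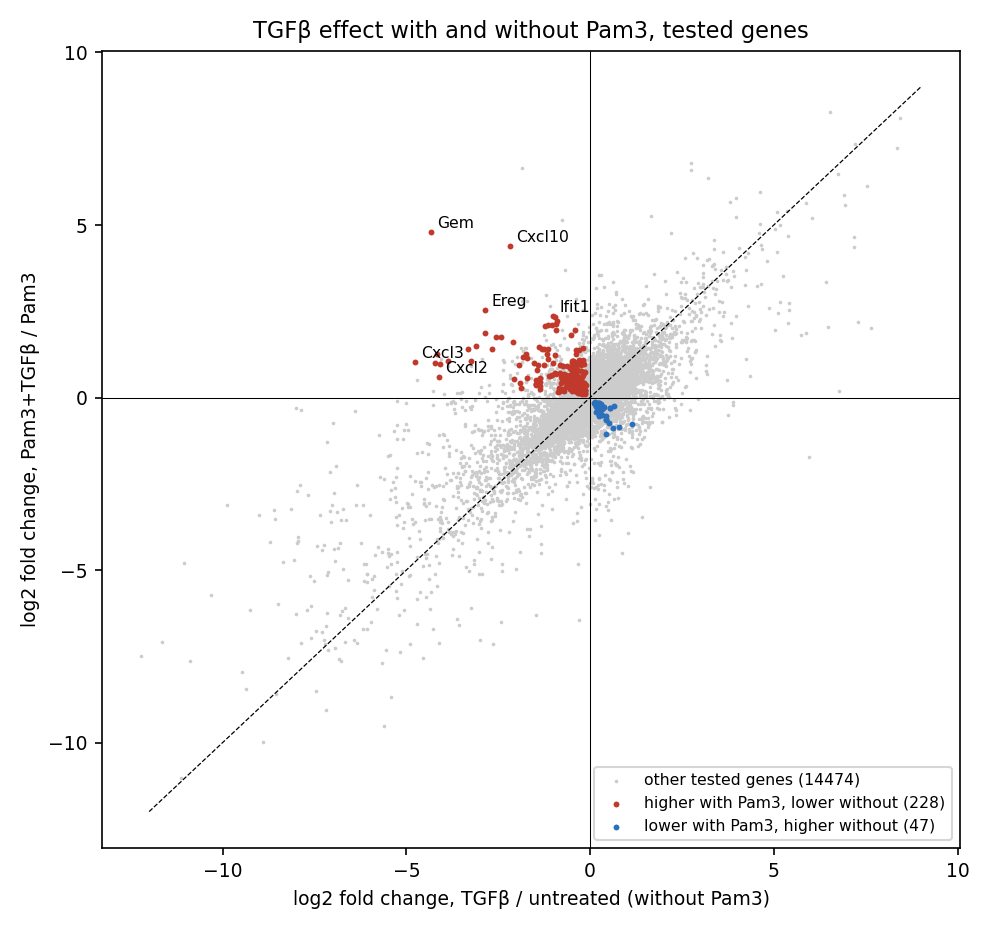
Log2 effect of TGFβ with Pam3 (vertical) against the same effect without Pam3 (horizontal) for all tested genes, with the dashed line where they are equal. Most genes lie along the line, while the 228 red genes sit at upper left, higher with TGFβ in Pam3-treated cells and lower without Pam3, and the 47 blue genes sit just below and to the right of 0.

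Some of the genes with large gains had few or no counts with Pam3 alone. Krt79, a keratin of lung alveolar macrophages (GRCm39, chromosome 15, 101837767 to 101848759), stood at 0.026, 0.292 and 0.0953 CPM with Pam3 and 34.9, 42.4 and 39.7 CPM with Pam3+TGFβ, which is 8.1 on the log2 scale (SE 0.211, adjusted p = 1.49e-18). Spsb1, which encodes an adaptor of a ubiquitin ligase that acts on TGFβ receptors (chromosome 4, 149866034 to 150039500), went from 0.624, 0.451 and 0.54 to 37.1, 40.4 and 35.6 CPM (6.12, SE 0.135, adjusted p = 6.76e-22). All libraries with TGFβ were above all without for both genes. Npnt, an integrin ligand of the matrix, rose by 5.39, Vipr2, a receptor for the peptide VIP, by 5.2, Cd34, a sialomucin, by 5.38 and Carmil1, an actin regulator, by 5.27 on the log2 scale. Cxcr2, the receptor for neutrophil-attracting CXC chemokines, had no count in any Pam3 library and 1.05, 0.964 and 1.06 CPM with Pam3+TGFβ, at least 10.7-fold higher against a floor of 3 counts per library. Thbs4 and Peg10 were at least 19.98-fold and 16.7-fold higher by the same floor.

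Some of the genes with large losses had few or no counts left with TGFβ. Cmklr1, the receptor for the chemoattractant chemerin, fell from 154, 142 and 160.03 to 0.873, 0.535 and 0.474 CPM (−7.95, SE 0.156, adjusted p = 1.52e-17). The highest library with TGFβ was at 0.873 CPM, and the lowest without it at 142 CPM. Igf2r, which carries mannose 6-phosphate tagged enzymes to lysosomes, fell by 7.62 and Nes, an intermediate filament protein, by 7.5 on the log2 scale. Serpinb10, an intracellular protease inhibitor, was at 5.15, 7.06 and 8.36 CPM with Pam3 and had no count with Pam3+TGFβ, at least 78.6-fold lower. Fcrls was at least 27.5-fold lower, Mmp9, a gelatinase, at least 20.3-fold, and C1qb, a chain of complement C1q, at least 102-fold.

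**Figure D3:**
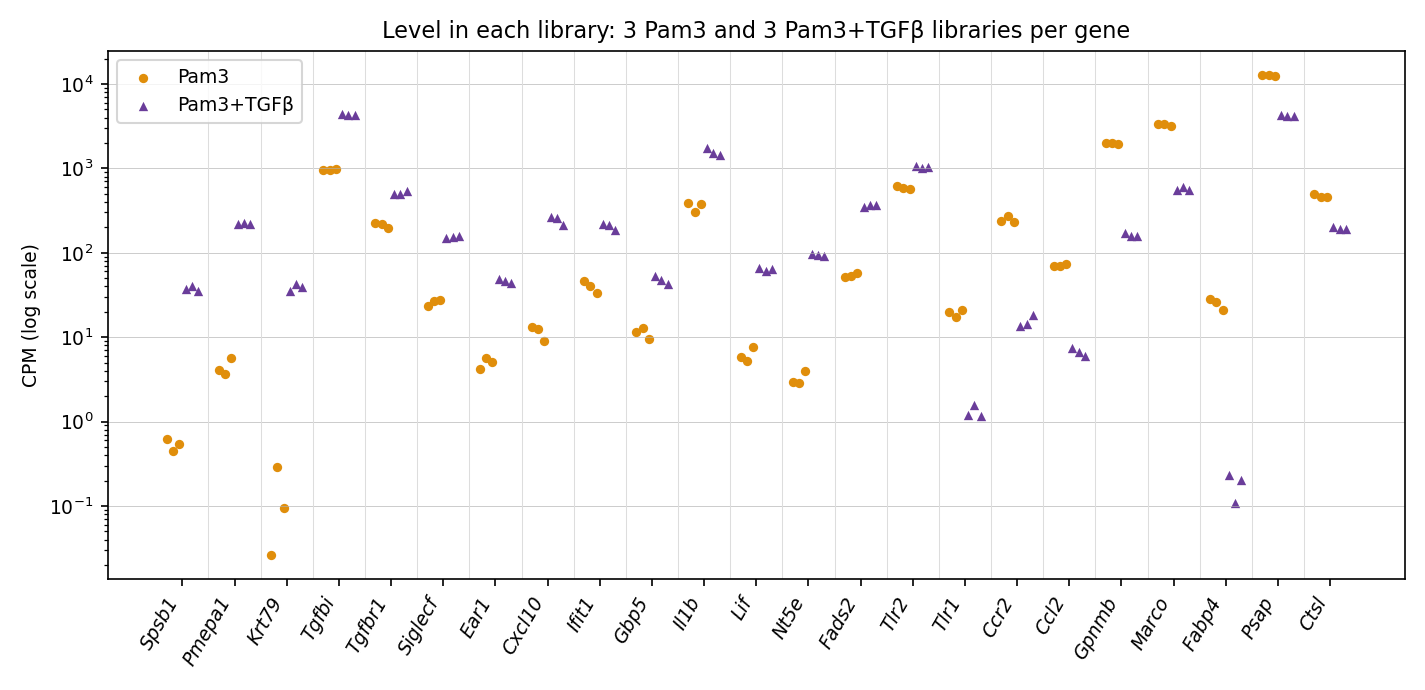
CPM on a log scale for each of the 6 libraries (orange circles Pam3, purple triangles Pam3+TGFβ) in 23 genes described in the text. The groups are apart for every gene shown; Spsb1, Pmepa1 and Krt79 are among the genes under 6 CPM without TGFβ, and Tlr1 and Fabp4 among those under 2 CPM with it.

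Targets and brakes of the TGFβ pathway rose with it in Pam3-treated cells. Of 26 tested genes of SMAD signalling and its feedback inhibitors, 16 rose, 6 fell and 4 were not called, with a median log2 fold change of 0.49 (0.66 without Pam3). The shares were 61.5% higher and 23.1% lower, against 21.5% and 23.8% of all tested genes, so the share that fell was near that background. Pmepa1, a membrane protein that sequesters receptor SMADs, went from 4.08, 3.61 and 5.69 to 217, 226 and 217 CPM (5.64, SE 0.108, adjusted p = 2.38e-18). Smad7, the inhibitory SMAD that recruits ubiquitin ligases to the type I receptor, went from 3.02, 2.81 and 3.11 to 12, 11.9 and 11.8 CPM (2, SE 0.119, adjusted p = 3.11e-13). Neither gene had overlapping groups. The libraries of a group lay close together for Smad7, while those with Pam3 were more spread for Pmepa1. The corepressors Tgif2, Skil and Ski rose by 2.4, 1.36 and 0.85, the pseudoreceptor Bambi by 1.44 and the inhibitory Smad6 by 1.29. The signal carriers went the other way: Smad2 fell by 0.27 and the shared partner Smad4 by 0.17, and Smad3, at 0.754, 0.637 and 0.572 CPM with Pam3, fell to 0.0291, 0.107 and 0 CPM. The call of Smad4 was lost without replicate 2 of Pam3+TGFβ (adjusted p = 0.0687) and with no count filter (0.0598). The interaction was called for 7 of the 26 genes (for 15.9% of all tested genes), 3 with a more positive and 4 with a more negative effect in Pam3. Tgif1, a corepressor, was among the former (0.66 against 0.14 without Pam3). Among the latter, Spsb1 rose less with Pam3 present (6.12 against 7.53 without, interaction adjusted p = 0.00117), as did Id3, an inhibitor of helix-loop-helix factors (0.5 against 1.58).

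The receptors moved in opposite directions. Tgfbr1, the type I receptor kinase, rose from 228, 219 and 195 to 502, 497 and 543 CPM (1.26, SE 0.071, adjusted p = 7.71e-12), and Tgfbr2, the type II receptor that binds the ligand, fell from 365, 372 and 361 to 219.8, 215 and 225 CPM (−0.74, SE 0.042, adjusted p = 1.46e-13). Per kilobase of annotated exons the mean level of Tgfbr1 was 32.3 CPM with Pam3 and 77.6 CPM with Pam3+TGFβ, and that of Tgfbr2 was 41.6 and 25 CPM, so the order of the receptors was opposite in the groups. Of 24 tested ligands, receptors and latent TGFβ activators (28 listed), 10 rose and 9 fell (41.7% and 37.5%, against 21.5% and 23.8% of all tested genes), with a median of 0.26 that was 0.413 where each library had to hold 10 counts or more. Tgfb1 itself fell by 0.22, and the proteins that tether latent TGFβ to the cell surface fell further: Nrros by 1.59 and Lrrc32, from 5.98, 8.84 and 9.21 to 0.378, 0.134 and 0.339 CPM, by 4.8. Thbs1, an activator of latent TGFβ, fell from 16.2, 12.7 and 39.5 CPM to at most 3 counts per library, at least 261-fold lower, or at least 166-fold without replicate 3 of Pam3. Tgfbi, a secreted matrix protein and SMAD target, rose from 965, 965 and 981 to 4355, 4283 and 4347 CPM, a log2 fold change of 2.16. Inhba, the activin A subunit, rose by 1.05 with Pam3 and fell without it (−3.87).

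The sensors of Pam3 were rearranged. Tlr2 rose with TGFβ from 618, 589.7 and 575 to 1079, 1016 and 1032 CPM (0.81, SE 0.054, adjusted p = 2.65e-12), whereas its partner for triacylated lipopeptides, Tlr1, fell from 20.002, 17.2 and 20.9 to 1.19, 1.55 and 1.17 CPM (−3.89, SE 0.156, adjusted p = 9.44e-17). Each gene had all libraries of 1 group above all of the other. The partner for diacylated lipopeptides, Tlr6, fell by 0.87, and Cd36, a scavenger receptor that serves as a TLR2 coreceptor, fell from 512, 481 and 468 to 70.4, 62.4 and 58.8 CPM (−2.93). Per kilobase, mean Tlr1 was 5.73 CPM and mean Tlr6 5.47 CPM with Pam3, and 0.386 and 3 CPM with Pam3+TGFβ, beside 108 and 189.6 CPM for Tlr2. Without Pam3, TGFβ lowered Tlr2 (−0.49) and the effects differed by 1.3 (SE 0.076, interaction adjusted p = 3.67e-12), while for Tlr1 no difference was detected (−3.78 without Pam3, interaction adjusted p = 0.846). Over the 23 tested receptors and adaptors, 9 rose and 12 fell (39.1% and 52.2%, against 21.5% and 23.8% of all tested genes), and the median was −0.15. Cd14, Myd88, Irak1, Irak2, Traf6, Tirap and Tlr3 were among those that rose, by 0.29 to 0.63, and Tlr4, Tlr9 and Tlr13 among those that fell, with Tlr13, a sensor of bacterial ribosomal RNA, at −1.19.

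NF-kB genes stood modestly higher with TGFβ. Of 23 subunits and feedback inhibitors, 13 rose (56.5%, against 21.5% of all tested genes), 3 fell and 7 were not called, and the median was 0.26, whereas without Pam3 none of the 23 rose and 13 fell. The inhibitor Nfkbia, an immediate NF-kB target, went from 184, 179 and 186 to 291, 283 and 276 CPM (0.63, SE 0.049, adjusted p = 6.35e-11), and Tnfaip3, the ubiquitin-editing enzyme A20, from 73.2, 66.4 and 69.2 to 128, 117 and 116 CPM (0.79, SE 0.06, adjusted p = 3.95e-11). For both, the groups were apart by more than their spread. The precursor subunits Nfkb1 and Nfkb2 rose by 0.44 and 0.65, Relb by 0.61 and Tnip1 by 0.82. Tnip3, a relative of Tnip1 that also binds A20, fell from 59.8, 58.7 and 49.9 to 11.3, 9.91 and 11.5 CPM (−2.37), and Nfkbid and the mRNA-destabilizing Zfp36 fell by 0.74 and 0.47. By the interaction test, 17 of the 23 had a more positive TGFβ effect with Pam3 than without, and none a more negative one. Of all tested genes, 10.3% and 5.67% did.

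Among immediate early genes and dual-specificity phosphatases, 10 of 23 tested rose and 8 fell (43.5% and 34.8%, against 21.5% and 23.8% of all tested genes), with a median of 0.19 that was 0.053 without replicate 1 of Pam3+TGFβ. Maff, a small MAF factor, rose from 16.8, 19.1 and 21.5 to 68.6, 67.7 and 64.2 CPM (1.81, SE 0.095, adjusted p = 1.02e-13), and the MAP kinase phosphatases Dusp5, Dusp16 and Dusp6 by 1.44, 0.91 and 0.82. The zinc finger factors of the EGR family fell, Egr1 from 8.04, 8.18 and 9.4 to 2.94, 1.98 and 1.99 CPM (−1.9, SE 0.158, adjusted p = 1.88e-10), Egr3 by 2.31 and Egr2 by 0.51. Batf, Ier3 and Atf3, a stress-induced repressor, fell by 1.25, 1.06 and 0.79. Fos was at 27.4, 27.9 and 29.1 against 26.4, 26.8 and 27.6 CPM and was not called (adjusted p = 0.584).

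Interferon-stimulated genes were higher with TGFβ in Pam3-treated cells as a group. Of 38 tested antiviral genes of the ISG15, IFIT and OAS type (39 listed), 32 rose, 2 fell and 4 were not called, with a median log2 fold change of 1.27. The share that rose was 84.2%, against 21.5% of all tested genes. Of 17 tested guanylate-binding proteins and immunity-related GTPases (18 listed), 14 rose, 1 fell and the median was 1.4. Their shares were 82.4% higher and 5.88% lower, against 21.5% and 23.8% of all tested genes. Without Pam3 the medians were −0.51 and −1.21. The interaction was called as more positive with Pam3 for 36 of the 38 and for 17 of the 17, against 10.3% of all tested genes. In 20 and 10 of these genes the TGFβ effect was called in opposite directions in the presence and absence of Pam3. The same held for 275 of all 14749 tested genes.

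Promoter sequence is shown for some genes on which this account turns, to let the motifs be read in place. Each was searched for motifs chosen for that gene, and only windows with a match are shown. That each has a match is therefore given by the choice. The windows are the 250 bases before the annotated start in RefSeq on GRCm38.p6, an older build than that of the counts, written 5′ to 3′ on the gene's strand. Capitals mark the interferon-stimulated response element, searched as GAAA, any 2 bases and GAAA, and the NF-kB site, searched as GGGAA, any base and TTCC. Both strands were searched, so that matches to the reverse complement (TTTC, any 2 bases and TTTC, or GGAA, any base and TTCCC) are in capitals too.
Cxcl10 (chr5:92348890-92349139, minus strand): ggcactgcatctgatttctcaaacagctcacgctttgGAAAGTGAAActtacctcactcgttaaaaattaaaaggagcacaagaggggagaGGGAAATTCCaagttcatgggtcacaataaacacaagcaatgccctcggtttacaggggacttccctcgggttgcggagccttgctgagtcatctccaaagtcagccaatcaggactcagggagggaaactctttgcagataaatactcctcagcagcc
Ifit1 (chr19:34640639-34640888, plus strand): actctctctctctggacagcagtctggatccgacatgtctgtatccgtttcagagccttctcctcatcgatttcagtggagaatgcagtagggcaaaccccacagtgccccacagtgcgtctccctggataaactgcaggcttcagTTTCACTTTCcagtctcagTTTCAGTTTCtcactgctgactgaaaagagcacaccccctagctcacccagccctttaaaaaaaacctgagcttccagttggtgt
Gbp5 (chr3:142496684-142496933, plus strand): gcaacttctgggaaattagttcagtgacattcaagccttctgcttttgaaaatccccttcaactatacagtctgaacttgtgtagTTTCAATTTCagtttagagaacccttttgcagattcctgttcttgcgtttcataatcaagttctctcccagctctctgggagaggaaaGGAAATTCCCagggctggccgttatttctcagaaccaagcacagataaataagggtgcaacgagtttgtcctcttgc
Irgm2 (chr11:58214727-58214976, plus strand): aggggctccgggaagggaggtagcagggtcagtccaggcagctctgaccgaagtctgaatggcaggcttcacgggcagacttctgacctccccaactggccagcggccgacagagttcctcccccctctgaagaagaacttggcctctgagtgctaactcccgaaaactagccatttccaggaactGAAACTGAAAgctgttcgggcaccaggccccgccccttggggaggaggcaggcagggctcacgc
Cxcl2 (chr5:90903649-90903898, plus strand): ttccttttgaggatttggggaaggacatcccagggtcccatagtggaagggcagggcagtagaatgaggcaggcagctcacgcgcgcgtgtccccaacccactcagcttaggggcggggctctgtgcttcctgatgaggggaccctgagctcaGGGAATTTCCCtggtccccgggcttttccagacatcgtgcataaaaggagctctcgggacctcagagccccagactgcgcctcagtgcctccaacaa
Cxcl3 (chr5:90785851-90786100, plus strand): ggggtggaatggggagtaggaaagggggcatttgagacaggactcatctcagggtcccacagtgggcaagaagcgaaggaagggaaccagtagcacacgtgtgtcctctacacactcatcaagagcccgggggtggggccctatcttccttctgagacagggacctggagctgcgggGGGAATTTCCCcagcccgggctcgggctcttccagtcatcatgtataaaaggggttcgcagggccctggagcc
Cxcl10 has an interferon element whose first base lies 213 bases before the start and an NF-kB site at 159. Ifit1 has interferon elements at 104 and 85, Gbp5 has 1 at 165 and an NF-kB site at 77, and Irgm2 has 1 interferon element at 64. In the neighbouring chemokine genes Cxcl2 and Cxcl3, a single stretch matches the NF-kB site on both strands, at 97 and 96 and at 73 and 72 bases before the start.

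The same letters were counted over the promoters of all tested genes that had a window (11210 genes, 76.0%), here over 250 bases before and 50 after the start, with no test. The interferon element was present for 3.91% of all these genes, for 5.29% of the genes that rose with TGFβ, 3.51% of those that fell and 3.50% of those not called. It was present for 22.1% of 181 genes that rose with Pam3 and fell without it, and for 3.17% of 1701 genes that rose in both conditions. In the antiviral list the share was 57.1% (of 28 genes) and among the guanylate-binding and immunity-related GTPases 90.0% (of 10). The NF-kB site was present for 0.526% of all genes with a window and for 3.87% of the 181. The SMAD palindrome, GTCT followed by AGAC, was present for 0.285% of all genes with a window and 0.478% of those that rose, and the CAGA box, AGCC followed by AGAC, for 1.52% and 1.59%. The AP-1 site, TGANTCA, was present for 6.75% of all genes with a window, for 6.81% of those that rose and 7.78% of those that fell. It was present for 12.4% of the genes that rose by at least 1 on the log2 scale, 11.9% of those that fell by as much, 11.6% of the 181 and 25.0% of the antiviral list, so that matches above the background share were not limited to the interferon and NF-kB motifs.

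Among the antiviral genes, members of the IFIT family and Oasl1 showed the largest gains. Ifit3, an RNA-binding effector, went from 17.7, 13.7 and 10.3 to 168, 169.7 and 156 CPM (3.56, SE 0.266, adjusted p = 4.67e-06), and Ifit1, which binds RNA lacking a ribose-methylated cap, from 46.1, 40.3 and 33.5 to 219.9, 211 and 188 CPM (2.37, SE 0.174, adjusted p = 1.96e-06). In each case the lowest Pam3+TGFβ library stood far above the highest Pam3 library. Ifit3b is a near copy of Ifit3, so reads could be split between them, and its 3.54 is uncertain. Oasl1 rose by 2.52, Rsad2, the nucleotide-modifying enzyme viperin, by 2.33, Cmpk2, its neighbour and partner, by 2.23, Mx2 by 2.14 and the ubiquitin-like modifier Isg15 by 2.09. The RNA sensors Ddx58 and Ifih1 rose by 1.44 and 1.06. Mx1, a dynamin-like antiviral GTPase, rose by 1.06 with Pam3 and fell without it (−3.23, interaction 4.29, adjusted p = 8.26e-05). Among the exceptions were Ifi27l2a, which fell, at −0.48, and Samhd1, at 597, 599 and 554 against 546, 542 and 559 CPM, which was not called.

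Gbp5, which promotes inflammasome assembly, went from 11.5, 12.7 and 9.5 to 53.4, 47.3 and 42.9 CPM (2.08, SE 0.128, adjusted p = 1.51e-11), and Irgm2, a regulatory immunity-related GTPase, from 44.1, 44.5 and 39.7 to 137, 131 and 125 CPM (1.62, SE 0.071, adjusted p = 6.93e-16). No library of 1 group reached the range of the other. Igtp rose by 1.82, Gbp3 by 1.49, Irgm1 by 1.39 and Gbp2 by 0.92. Gbp8 fell by 1.49, and Gbp4, at 5.96, 6.29 and 3.69 against 5.93, 6.67 and 5.08 CPM, was not called. Members of these families are alike in sequence, and how the authors counted reads that fit several genes is not given in the sources used here, so single members are less certain than the family.

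The genes that make and relay the signal were more mixed. Of 21 interferon genes listed, 18 had no count in any of the 6 libraries, and none passed the count filter. Ifnb1, which encodes interferon beta (GRCm39, chromosome 4, 88440262 to 88441011), held 0, 0 and 0 counts with Pam3 and 11, 18 and 10 counts with Pam3+TGFβ, at least 3.60-fold higher against the floor of 3 counts per library. Tested with no count filter, in edgeR, it had an adjusted p of 0.00238. Of 26 sensors, receptors and IRF factors, 12 rose (46.2%, against 21.5% of all tested genes), 4 fell (15.4%, against 23.8%) and the median was 0.12, or 0.078 without replicate 2 of Pam3+TGFβ. Irf7, the factor that amplifies interferon production, rose from 57, 48.4 and 45.9 to 218, 221 and 220.4 CPM (2.12, SE 0.174, adjusted p = 5.12e-06). Its groups stood apart. Stat2 and Irf9, parts of the interferon-activated complex, rose by 1.39 and 0.81, and Irf1 by 0.91. Irf3, Sting1, Ikbke and Ifnar2 were not called, with log2 fold changes between −0.09 and 0.05. Ifnar1, the other receptor chain, fell by 0.25, Jak1 by 0.59, the adaptor Ticam1 by 0.55 and Irf4 by 1.38.

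**Figure D4:**
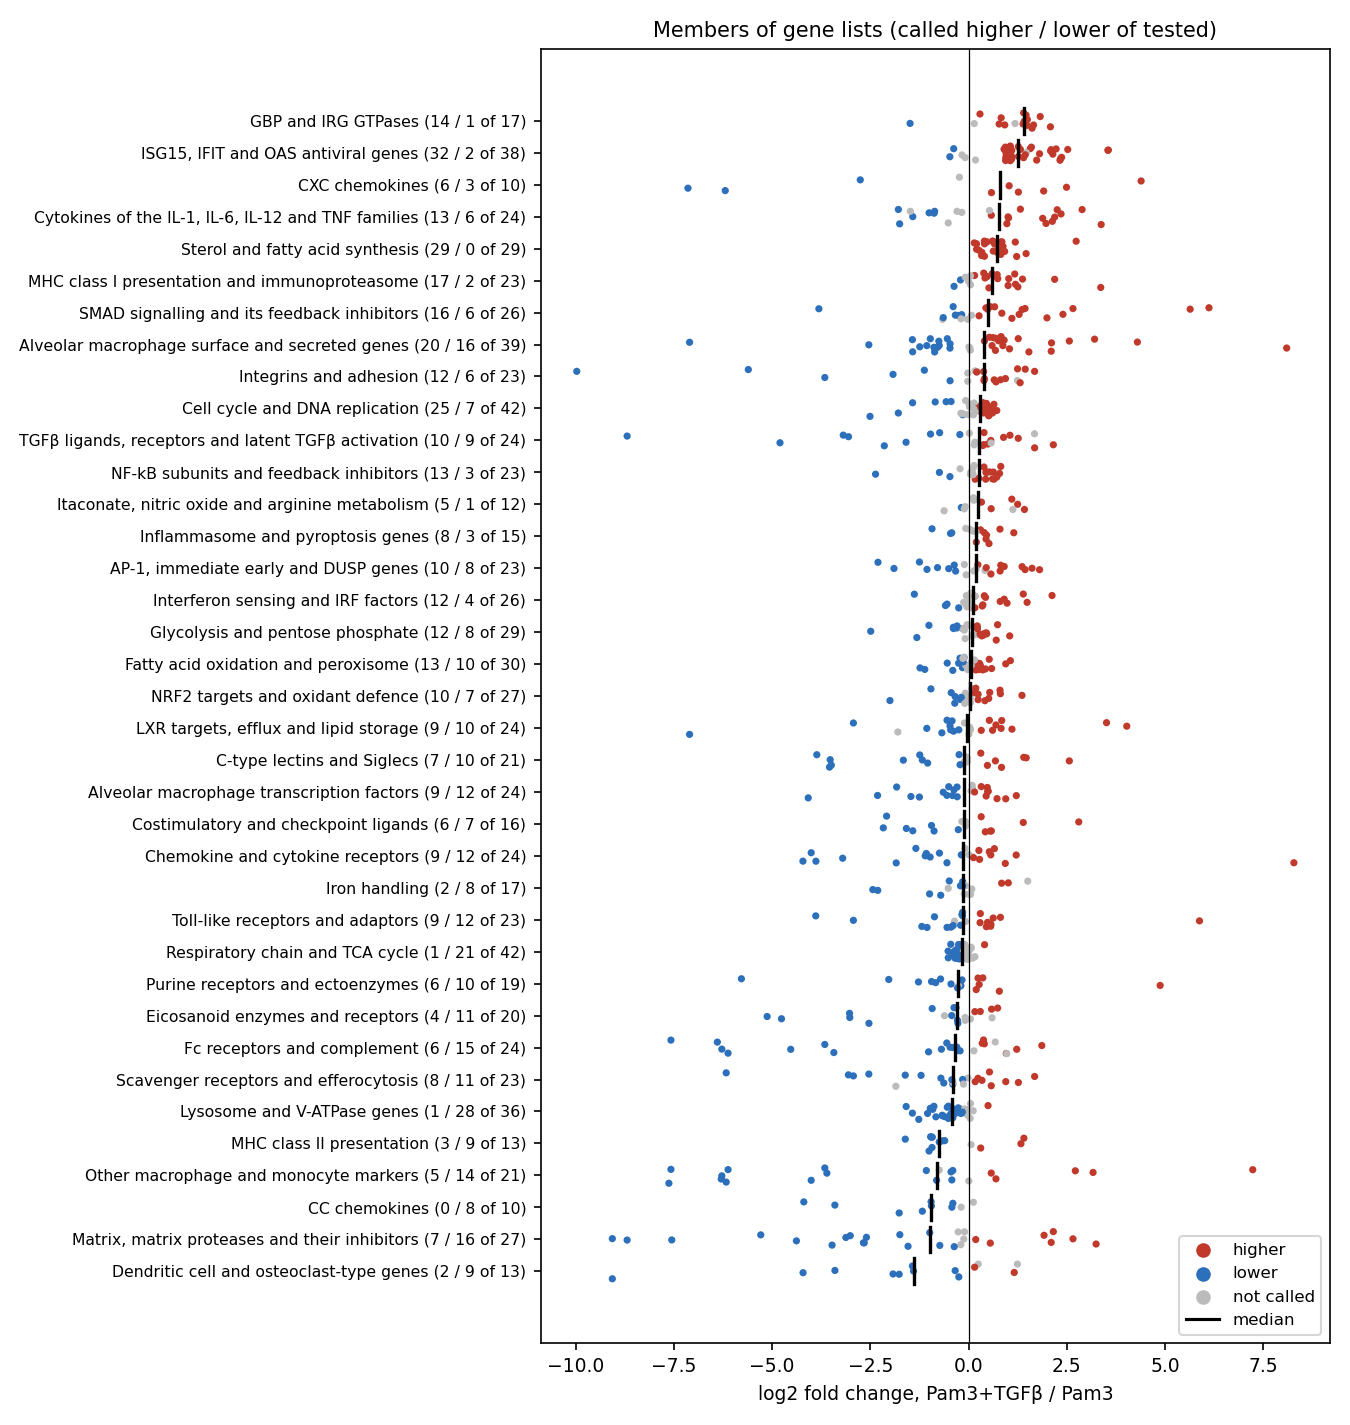
Log2 fold change of Pam3+TGFβ over Pam3 for the tested members of 37 gene lists (points colored by call, black bar the list median), with the numbers called higher and lower of those tested. The GTPase and antiviral lists have the highest medians, the sterol synthesis list has all 29 members on the right of 0, and the dendritic and osteoclast-type, matrix and CC chemokine lists have the lowest medians; fitted values of genes with no count in 1 group are no bounds.

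CC chemokines were lower, and more of the tested CXC chemokines rose than fell. None of 10 tested CC chemokines (13 listed) rose and 8 fell, with a median of −0.95, while of 10 tested CXC chemokines (14 listed) 6 rose and 3 fell, with a median of 0.81. Of all tested genes 21.5% rose and 23.8% fell, which the 30.0% of CXC chemokines that fell is near to. Where each library had to hold 10 counts or more, 5 CC chemokines (median −0.666) and 4 CXC chemokines (median 1.174) were called. Cxcl10, which attracts T cells through CXCR3 (GRCm39, chromosome 5, 92494497 to 92496748), went from 13.3, 12.4 and 8.99 to 263, 256 and 215 CPM (4.39, SE 0.249, adjusted p = 6.06e-07). The lowest Pam3+TGFβ library, at 215 CPM, was well above the highest Pam3 library, at 13.3 CPM. Without Pam3, TGFβ lowered it (−2.18), and the difference between the effects was 6.57 (interaction adjusted p = 3.44e-05). Cxcl11, another CXCR3 ligand, held 0, 0 and 0 counts with Pam3 and 7, 3 and 7 with Pam3+TGFβ and was not tested. Cxcl14 rose from 40.4, 38.3 and 43.6 to 219, 240.4 and 229 CPM and Cxcl16 by 1.27 on the log2 scale. Of the neutrophil attractants, Cxcl3 and Cxcl2 rose by 1.03 and 0.58 (adjusted p = 0.00332 and 0.0352), from 61.4, 53.2 and 66.6 to 105, 86.9 and 79.7 CPM for Cxcl2 and from 90.2, 75.9 and 109.5 to 231, 165 and 167 CPM for Cxcl3, with no overlap of groups in either. The Cxcl2 call was lost in turn without replicate 1 or 2 of Pam3, without replicate 1 or 2 of Pam3+TGFβ and without replicate 1 of TGFβ alone, at adjusted p from 0.0521 to 0.105, with the replicate number as a block (0.0736), with no count filter (0.0606) and with the mitochondrial share as a term (0.0685). Cxcl1 was not called at 2.31, 1.88 and 2.99 against 2.44, 1.93 and 1.74 CPM. The neutrophil attractants Ppbp and Cxcl5 fell, Ppbp from 8.92, 8.71 and 9.63 to 0.145, 0.134 and 0.0904 CPM and Cxcl5 from 0.468, 0.478 and 0.445 CPM to no count, at least 5.31-fold lower.

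Ccl2, which recruits monocytes through CCR2, fell from 69.8, 69.2 and 73.2 to 7.48, 6.64 and 6.01 CPM (−3.4, SE 0.089, adjusted p = 1.61e-20), and its neighbour Ccl7 from 1.64, 1.67 and 1.97 to 0.0873, 0 and 0.181 CPM. Ccl3 and Ccl4, attractants of monocytes and T cells, each fell by 0.95, Ccl22 by 1.77 and Ccl17 by 0.4. The abundant Ccl6 fell from 10572, 10290 and 10247 to 4753, 4684 and 4333 CPM. All libraries with TGFβ were below all without for each of these 7 genes. For Ccl2, Ccl3 and Ccl4 the fall was smaller than without Pam3, where the effects were −9.01, −5.07 and −4.94, and the interaction was called for each (adjusted p = 4.93e-15, 8.72e-11 and 3.15e-09). The receptors for these chemokines fell as well: Ccr2 from 241, 269.5 and 229 to 13.4, 14.2 and 18.3 CPM (−4, SE 0.136, adjusted p = 8.2e-10) and Ccr1 by 0.74.

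Both interleukin-1 genes, Il1b and Il1a, rose. Il1b, the pro-form of interleukin-1 beta, went from 385, 308 and 377 to 1727, 1512 and 1449 CPM (2.13, SE 0.176, adjusted p = 8.05e-06), and Il1a from 409.9, 359 and 382 to 1532, 1402 and 1321 CPM (1.89, SE 0.126, adjusted p = 3.72e-07). The libraries with TGFβ were all far above the highest library without it. Their natural antagonist Il1rn rose less, from 787, 755 and 843 to 1740.2, 1576 and 1517 CPM (1.02, SE 0.071). Per kilobase, mean Il1b went from 137 to 601 CPM and mean Il1rn from 144 to 291 CPM. The IL-36 family members Il1f9 and Il1f6 rose by 2.35 and 2.89, and Il18, processed by caspase-1 as Il1b is, fell by 0.88. Without Pam3, neither Il1b (0.09) nor Il1a (−0.2) was called, and the interaction was called for both (adjusted p = 0.000456 and 1.3e-05).

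Across 24 tested cytokines of the IL-1, IL-6, IL-12 and TNF families (29 listed), 13 rose and 6 fell (54.2% and 25.0%, against 21.5% and 23.8% of all tested genes), with a median of 0.78 (−0.54 without Pam3). Lif and Osm, cytokines that signal through gp130, rose by 3.37 and 2.19, with Lif at 5.83, 5.2 and 7.56 against 65.9, 61 and 64.7 CPM. Tnf rose from 151, 141 and 144 to 234, 217 and 201 CPM (0.58, SE 0.081, adjusted p = 1.14e-05) and Il6 from 7, 5.5 and 5.62 to 15.3, 10.6 and 9.8 CPM (0.97, SE 0.208, adjusted p = 0.000592). The groups did not overlap for these 4 genes, but the Il6 libraries with TGFβ spread over more than those without. Tnfsf10, the death ligand TRAIL, rose by 1.97 and Tnfsf15 by 1. Csf1, the macrophage growth factor, fell from 18.4, 18.3 and 20.7 to 5.67, 5.62 and 5.69 CPM (−1.75), and Tnfsf14, Il15 and Ebi3 fell by 1.79, 1 and 0.86. Il23a held 2, 1 and 1 counts with Pam3 and 21, 14 and 7 with Pam3+TGFβ and was not tested.

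For the receptors of GM-CSF, on which the cells depend, no change was detected. Csf2ra was at 445, 464 and 475 against 410.5, 449 and 441 CPM and Csf2rb, the signalling chain, at 3163, 3139.7 and 3231 against 3383, 3223 and 3443 CPM, and neither was called (adjusted p = 0.159 and 0.245). Csf1r was not called either (0.01, adjusted p = 0.928). Their groups overlapped. Of 24 tested chemokine and cytokine receptors (28 listed), 9 rose and 12 fell (37.5% and 50%, against 21.5% and 23.8% of all tested genes, median −0.14, and −0.067 where each library had to hold 10 counts or more). Il13ra1 and Il4ra, chains of the type II interleukin-4 receptor, rose by 1.21 and 0.53, while Il7r fell from 23, 22.3 and 24.6 to 2.39, 0.964 and 0.565 CPM (−4.21) and the decoy receptor Il1r2 by 3.2.

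**Figure D5:**
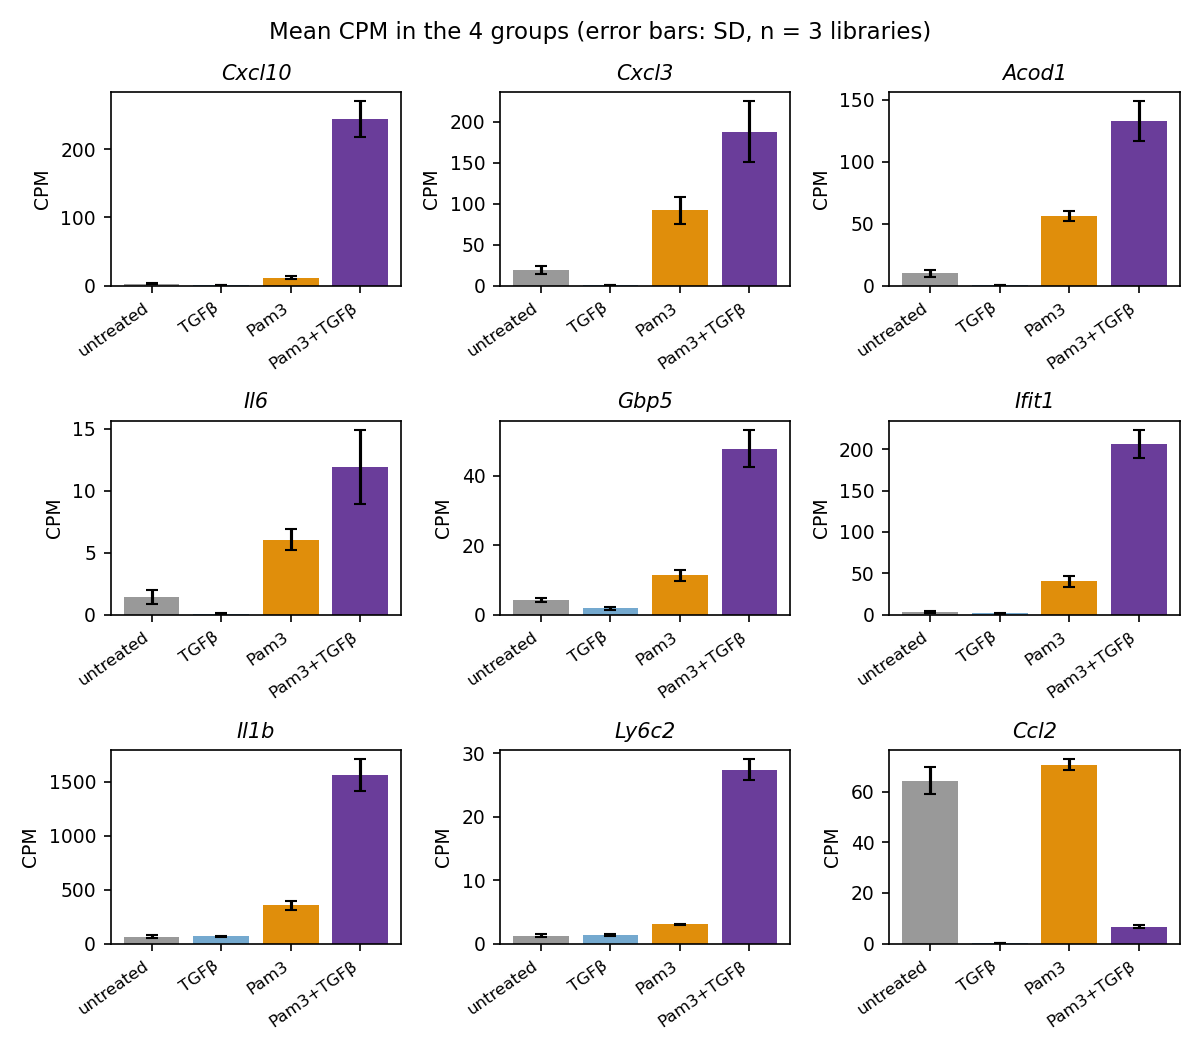
Mean CPM (bars) with SD (error bars, n = 3 libraries) in the 4 groups for 9 genes. Cxcl10, Gbp5, Ifit1 and Ly6c2 are highest with Pam3+TGFβ; Cxcl3, Acod1 and Il6 are lower with TGFβ than untreated but higher with Pam3+TGFβ than with Pam3; Ccl2 falls with TGFβ in both conditions.

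Of 15 tested inflammasome genes, 8 rose and 3 fell (53.3% and 20.0%, against 21.5% and 23.8% of all tested genes, with a median of 0.20). Naip2, a receptor for bacterial secretion system proteins, rose from 202, 198 and 202 to 451, 426 and 460.5 CPM (1.15), the DNA sensor Aim2 by 0.8 and Nlrp3 by 0.4. Pycard, the adaptor ASC, fell from 160.4, 164 and 153 to 83.2, 87.3 and 79.8 CPM (−0.93, SE 0.06, adjusted p = 1.46e-12), and Casp1 was not called at 70.7, 68.5 and 59.4 against 67.5, 61.9 and 59.7 CPM. These sensors and the adaptor had groups that were apart, and those of Casp1 overlapped. In itaconate, nitric oxide and arginine metabolism, 5 of 12 tested genes rose and 1 fell (median 0.23), 41.7% and 8.33% against 21.5% and 23.8% of all tested genes. Acod1, which makes itaconate, rose from 58.2, 51 and 58 to 150.3, 129 and 119 CPM (1.25, SE 0.181, adjusted p = 0.000325) beside an effect of −4.17 without Pam3. Slc7a2, the arginine importer, rose from 1220.1, 1104 and 1141 to 3266, 2934 and 3083 CPM, and Gch1, which makes the nitric oxide synthase cofactor, rose by 1.1. Nos2 held 0, 2 and 2 counts with Pam3 and 14, 14 and 8 with Pam3+TGFβ, under the count filter, and with no such filter its adjusted p in edgeR was 0.083.

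Lipid mediator genes mostly fell: 11 of 20 tested eicosanoid enzymes and receptors fell (55.0%, against 23.8% of all tested genes) and 4 rose, with a median of −0.30. Pla2g7, the phospholipase that degrades platelet-activating factor, fell from 86.1, 89.5 and 86.8 to 2.62, 2.84 and 2.1 CPM (−5.13, SE 0.106, adjusted p = 6.18e-22). Ltb4r1, the leukotriene B4 receptor, fell by 4.76, Hpgds, which makes prostaglandin D2, by 3.03, the prostacyclin receptor Ptgir by 2.54 and cyclooxygenase 1, Ptgs1, from 378, 379 and 358 to 185, 202 and 200.4 CPM. Ltc4s, which makes leukotriene C4, rose by 0.74 and the prostaglandin E2 receptor Ptger4 by 0.59. Ptgs2, the inducible cyclooxygenase, was not called, at 2.31, 1.81 and 2.38 against 2.65, 1.61 and 1.78 CPM.

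Antigen presentation split by class. Of 23 genes of MHC class I presentation and the immunoproteasome, 17 rose and 2 fell (median 0.60), while of 13 tested class II genes (15 listed) 3 rose and 9 fell (median −0.75). In class I 73.9% rose and 8.7% fell, and in class II 23.1% and 69.2%, against 21.5% and 23.8% of all tested genes, so the class II share that rose was near the background. Tap1, a subunit of the peptide transporter, went from 80.5, 69.9 and 70.5 to 191, 191 and 191 CPM (1.37, SE 0.063, adjusted p = 1.59e-15), and H2-K1, a class I heavy chain, from 393, 375 and 365 to 926, 901 and 876 CPM (1.25, SE 0.056, adjusted p = 7.63e-16). The libraries within a group differed little for both. The immunoproteasome subunits Psmb9 and Psmb8 rose by 1.19 and 0.73 and Tapbp by 1.01. H2-Q7 and H2-Q6 rose by 3.36 and 2.19 but are close paralogs. H2-D1 fell by 0.2, and B2m, the shared light chain, was not called at 1099, 1125 and 1056 against 1077, 1164 and 1047 CPM.

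In class II, Cd74, the invariant chain, fell from 167, 181 and 178 to 92.2, 90.1 and 91 CPM (−0.94, SE 0.058, adjusted p = 5.13e-13), H2-Aa from 18.4, 16.6 and 18.3 to 8.38, 9.45 and 10.2 CPM, and the peptide-exchange chain H2-DMa and the protease Lgmn by 1.01 and 1.61. Ciita, the class II transactivator, rose, from 1.66, 2.28 and 2.89 to 6.02, 4.26 and 6.82 CPM (1.33, SE 0.215, adjusted p = 1.22e-05), and H2-Ab1 was not called. Its direction was thus opposite to that of 9 of the 13 tested class II genes. Of 16 tested costimulatory and checkpoint ligands (20 listed), 6 rose and 7 fell (37.5% and 43.8%, against 21.5% and 23.8% of all tested genes). Cd40 rose from 0.754, 0.531 and 0.54 to 4.48, 4.58 and 3.79 CPM (2.8) and Icosl by 1.39, while Cd80 and Cd86, the ligands of CD28, fell by 2.17 and 0.94 and Vsir, the checkpoint protein VISTA, from 243, 243 and 247 to 60.2, 57.1 and 55.5 CPM (−2.09). Cd274, which encodes PD-L1, rose by 0.32.

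The identity genes of alveolar macrophages did not move as a block. Of 39 surface and secreted genes, 20 rose and 16 fell, and of 24 transcription factors 9 rose and 12 fell, with medians of 0.40 and −0.11. The shares were 51.3% higher and 41.0% lower among the former and 37.5% and 50% among the latter, against 21.5% and 23.8% of all tested genes. The second of these was 0.1 where each library had to hold 10 counts or more, and −0.063 without replicate 3 of Pam3. Pparg, the nuclear receptor that GM-CSF and TGFβ maintain in these cells, rose from 89.8, 91 and 86.5 to 170.04, 176 and 169 CPM (0.95, SE 0.045, adjusted p = 3.39e-15), beside an effect of 0.94 without Pam3 (interaction adjusted p = 0.993). Siglecf, the alveolar macrophage sialic acid receptor, rose from 23.4, 27.1 and 27.5 to 149.6, 152 and 159 CPM (2.56, SE 0.062, adjusted p = 3.65e-21). All libraries with TGFβ were higher for both. Ear1, an RNase A family member with close paralogs, rose by 3.21, Krt19 by 4.3, Fabp1 by 2.11, Car4 by 0.87 and Chil3, the chitinase-like YM1, from 2926, 2702 and 2682 to 4485, 4519 and 4422 CPM. Bhlhe41, a repressor characteristic of these cells, rose by 1.22.

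Other genes of the same list fell. Marco, the scavenger receptor, fell from 3399.7, 3325 and 3182 to 555, 599 and 551 CPM (−2.54, SE 0.073, adjusted p = 2.63e-19), and Fabp4, a fatty acid carrier and PPARγ target, from 28.5, 26.3 and 20.9 to 0.233, 0.107 and 0.203 CPM (−7.1, SE 0.189, adjusted p = 2.25e-20). These are large losses with no overlap. Lgals3, Mrc1 and Fabp5 fell by 1.42, 1.24 and 1.06, and Itgax by 0.47. Maf, a factor that restrains self-renewal and is low in alveolar macrophages, fell by 4.08, from 8.9, 9.18 and 9.98 to 0.815, 0.509 and 0.361 CPM. Spi1, the myeloid factor PU.1, was not called at 552, 576 and 613 against 604, 646 and 616 CPM. By the interaction test, 12 of the 39 surface and secreted genes had a more negative effect with Pam3 than without and 6 a more positive one (5.67% and 10.3% of all tested genes); Siglecf was among the former (3.22 without Pam3) and Marco among the latter (−4.12).

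Markers of other macrophages and monocytes fell in the majority: of 21 tested (30 listed), 14 fell and 5 rose (66.7% and 23.8%, against 23.8% lower and 21.5% higher of all tested genes), with a median of −0.81, and their summed level was 6056 to 6229 CPM with Pam3 and 2495 to 2532 CPM with Pam3+TGFβ. Gpnmb, a glycoprotein of lipid-laden macrophages, fell from 2006, 1973 and 1958 to 174, 157 and 157 CPM (−3.61, SE 0.058, adjusted p = 2.14e-24), and Itgam, the CD11b integrin chain, from 1304, 1229 and 1309 to 111, 97.3 and 96.4 CPM (−3.66, SE 0.064, adjusted p = 7.98e-24). No library with TGFβ came near the lowest library without it. The C1q genes C1qa and C1qc were at least 30.1-fold and 41.1-fold lower, Mgl2, a lectin of interstitial macrophages, at least 66-fold and Timd4, the phosphatidylserine receptor of some resident macrophages, at least 30.8-fold. Where each library had to hold 10 counts or more, the list median was −0.412. Against this trend Ly6c2, part of the monocyte marker Ly6C, rose from 3.04, 2.95 and 3.15 to 28.5, 28.2 and 25.5 CPM (3.17, SE 0.125, adjusted p = 7.33e-17), while without Pam3 it was not called (0.15, interaction adjusted p = 1.61e-10). Ly6c1, a near copy, gave 2.72. Dendritic cell and osteoclast-type genes were also lower in most cases, 9 of 13 tested, with Dcstamp, which mediates cell fusion, at −4.21, but their summed level was higher, at 722 to 749 CPM with Pam3+TGFβ against 545 to 565 CPM with Pam3, since Acp5, the most abundant of them, rose from 265, 239 and 239.96 to 557, 569 and 539 CPM.

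Adhesion and matrix genes changed widely. Of 23 tested integrin and adhesion genes (29 listed), 12 rose and 6 fell (52.2% and 26.1%, against 21.5% and 23.8% of all tested genes, with a median of 0.39). Itgb5, whose integrin activates latent TGFβ and takes part in apoptotic cell uptake, rose from 45.8, 43.8 and 46.4 to 139.6, 149 and 147 CPM (1.68, SE 0.049, adjusted p = 1.24e-19), Itgal, the CD11a chain, by 1.31 and Cdh1, E-cadherin, by 0.81. Itgb2, the shared chain of CD11a and CD11b, was not called, at 2081, 2021 and 2124 against 2077, 2011 and 2049.5 CPM. Of 27 tested matrix genes, proteases and inhibitors (31 listed), 7 rose and 16 fell (25.9% and 59.3%, median −0.99, and −2.44 without Pam3). Where each of the 12 libraries had to hold 10 counts or more, which leaves out those near 0 in any group, the median was −0.342. Mmp12, the macrophage elastase, fell from 3696, 3745 and 3759.8 to 652, 546 and 580.2 CPM (−2.65, SE 0.071, adjusted p = 3.39e-20), Mmp8, a collagenase, from 504, 529 and 528 to 64.3, 67.8 and 61.5 CPM (−3.01) and Fn1, fibronectin, by 1.75. Adam8 and Vcan, encoding a metalloprotease and the proteoglycan versican, fell by 5.29 and 4.38. Spp1, osteopontin, rose from 1369, 1297 and 1282 to 5795, 5627 and 5542 CPM (2.1).

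Among uptake receptors, 8 of 23 tested scavenger and efferocytosis genes rose and 11 fell (34.8% and 47.8%, against 21.5% and 23.8% of all tested genes). Their median was −0.39, and −0.182 without replicate 2 of Pam3 or −0.2 without replicate 3 of Pam3+TGFβ, and −0.107 where each library had to hold 10 counts or more. Axl, a receptor for apoptotic cells, rose from 1258, 1262 and 1244 to 1770.5, 1787 and 1883 CPM, and Olr1 and Mertk by 0.95 and 0.24, while the bridging ligands Gas6 and Pros1 fell by 3.06 and 1.21 and Msr1 by 0.7. Of 21 tested C-type lectins and Siglecs, 7 rose and 10 fell (33.3% and 47.6%, median −0.11, between −0.232 without replicate 1 of Pam3+TGFβ and −0.06 without replicate 1 of Pam3). Clec12a, Clec4a1 and Clec4a3 fell by 3.86, 3.52 and 3.49, with Clec12a, an inhibitory receptor, at 132, 131 and 120.1 against 8.23, 11.3 and 6.87 CPM. Siglece rose by 1.47, and Clec4e, the mycobacterial glycolipid receptor Mincle, was not called with Pam3 (−0.03) though it fell without (−2.55, interaction adjusted p = 1.92e-05).

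Of 24 tested Fc receptor and complement genes, 15 fell and 6 rose (62.5% and 25.0%, against 23.8% lower and 21.5% higher of all tested genes, with a median of −0.35). C3ar1, the receptor for the anaphylatoxin C3a, fell from 96.8, 86.8 and 91.4 to 3.35, 4.36 and 4.18 CPM (−4.53, SE 0.093, adjusted p = 1.64e-22). No library with TGFβ came near those without. In contrast, Cfb, which forms the alternative pathway convertase, rose from 288, 287 and 268 to 664, 656 and 652 CPM (1.23), C3 by 0.4 and the high-affinity IgG receptor Fcgr1 by 0.96. In purine signalling, Nt5e, the ectoenzyme CD73 that makes adenosine, rose from 2.91, 2.87 and 3.94 to 96.9, 94.9 and 91.3 CPM (4.88, SE 0.103, adjusted p = 7.37e-21), while Entpd1 (CD39), which acts before it, and Cd38 fell by 0.84 and 1.27. Over the 19 tested purine genes, 6 rose and 10 fell (31.6% and 52.6%).

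Of the lists with tested members used here, sterol and fatty acid synthesis was the only one in which every tested member moved the same way: 29 of 29 tested genes (30 listed) rose, with log2 fold changes up to 2.74, a median of 0.73 and no overlap between groups for any, against 55.1% of all tested genes with no overlap. Fads2, a desaturase of polyunsaturated fatty acids, rose from 51.7, 53.5 and 58.2 to 352, 372 and 365 CPM (2.74, SE 0.049, adjusted p = 1.18e-23), and Scd1, which makes oleic acid, from 203, 201 and 192 to 548, 534 and 563 CPM (1.46, SE 0.047, adjusted p = 8.87e-19). The spread within a group was small beside these differences. Nsdhl, Idi1 and Dhcr7 of the sterol pathway rose by 1.22, 1.19 and 0.85, and the regulators Srebf1 and Srebf2 by 0.88 and 0.41. The median without Pam3 was 0.79, where 28 rose and 1 fell. With Pam3, 28 of the 29 were called without replicate 3 of Pam3+TGFβ.

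Genes that store and export lipid were split, with 9 of 24 tested LXR, efflux and storage genes higher and 10 lower (37.5% and 41.7%, against 21.5% and 23.8% of all tested genes, median −0.05, and 0.033 where each library had to hold 10 counts or more). Dgat2, which makes triglyceride, rose from 1.92, 2.44 and 3.02 to 46.1, 36.3 and 37.1 CPM (4.03, SE 0.165, adjusted p = 1.17e-13), the cholesterol exporter Abca1 by 1.1 and Plin2, the droplet coat protein, by 0.53. Lpl fell from 7346, 7267 and 5880.5 to 4839, 5159 and 4764 CPM and the lysosomal lipase Lipa by 0.46, and Abcg1 was not called at 795, 789 and 814 against 796, 801 and 817 CPM. In fatty acid oxidation and peroxisomes, 13 of 30 tested genes rose and 10 fell (43.3% and 33.3%, median 0.06, between 0.019 without replicate 1 and 0.134 without replicate 2 of Pam3). Pex11a rose by 1.06, Acadvl by 0.53 and the entry enzyme Cpt1a by 0.27, while Ppargc1b, a coactivator of mitochondrial genes, fell by 1.24.

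Lysosomal genes were lower. Of 36 tested lysosome and V-ATPase genes, 28 fell, 1 rose and 7 were not called, with a median of −0.42 (−0.62 without Pam3). The share that fell was 77.8%, against 23.8% of all tested genes. Psap, the precursor of sphingolipid activator proteins and among the most abundant transcripts, fell from 12854, 12691 and 12562 to 4234, 4231 and 4214 CPM (−1.59, SE 0.047, adjusted p = 1.54e-19), and Ctsl, cathepsin L, from 491, 461 and 454 to 202, 192 and 190.4 CPM (−1.27, SE 0.048, adjusted p = 2.93e-17). The 3 libraries of a group were nearly level in both genes. Ctsb, Ctsa and Ctsd fell by 0.83, 0.88 and 0.46, the proton pump subunits Atp6v1b2 and Atp6v0a1 by 1.04 and 0.97, and Tfeb, a transcription factor for lysosomal genes, by 0.67. The related factor Tfe3 was not called.

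In energy metabolism the shifts were smaller. Of 29 glycolysis and pentose phosphate genes, 12 rose and 8 fell (41.4% and 27.6%, against 21.5% and 23.8% of all tested genes, with a median of 0.09): Hk2, Aldoc and Pfkfb4 rose by 0.7, 0.74 and 1.05, whereas Hk1, Hk3 and the transporter Slc2a6 fell by 1.01, 1.32 and 2.49, Slc2a6 from 218, 205 and 200.2 to 32.7, 39.1 and 39.1 CPM. Of 42 respiratory chain and TCA cycle genes, 21 fell (50%, against 23.8% of all tested genes) and 1, Idh2, rose (2.38%, against 21.5%), with a median of −0.16. Of 27 NRF2 targets and oxidant defence genes, 10 rose and 7 fell (37.0% and 25.9%). Slc7a11, the cystine importer, rose from 451, 416 and 479.6 to 1336, 1003 and 1113 CPM (1.36, SE 0.154, adjusted p = 6.65e-05), while Gpx3 and Nqo1 fell by 2 and 0.96. Of 17 tested iron genes, 8 fell and 2 rose (47.1% and 11.8%), with the exporter Slc40a1, ferroportin, at −2.44, the phagosomal metal transporter Slc11a1 (NRAMP1) at 42.2, 38 and 47.2 against 9.51, 7.39 and 8.74 CPM (−2.31) and Trf, transferrin, at 1.01. Fth1, the ferritin heavy chain, was not called.

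Replication genes stood slightly higher. Of 42 cell cycle and DNA replication genes, 25 rose and 7 fell (median 0.30). These are 59.5% and 16.7% of the list, against 21.5% and 23.8% of all tested genes. Mcm2, of the replicative helicase, rose from 84.8, 78.9 and 85 to 121, 129.7 and 129 CPM (0.61, SE 0.05, adjusted p = 1.45e-10), Bub1, Mcm6 and Top2a by 0.72, 0.59 and 0.52, and Mki67 by 0.27. The inhibitors of cyclin-dependent kinases Cdkn1a (p21) and Cdkn2a fell, Cdkn1a from 189.8, 178 and 178 to 65.4, 70.4 and 67.7 CPM (−1.42, SE 0.053, adjusted p = 2.47e-17) and Cdkn2a by 1.79. Every library of 1 group was beyond the other for these. Cdkn2b, a TGFβ-responsive inhibitor, rose by 0.65, and the D-type cyclins Ccnd1 and Ccnd3 fell by 0.85 and 0.57 while Ccnd2 rose by 0.36.

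The 12 genes with the largest interaction among those with opposite calls were all lower with TGFβ without Pam3 and higher with it in its presence. Among them were Cxcl10, Cxcl3, Cxcl2, Il6, Tnfsf15, Inhba and the EGF family ligand Ereg, which encode secreted or shed ligands. The share of such ligands among all tested genes was not counted. Ereg rose from 5.64, 5.02 and 6.99 to 40.4, 30.01 and 32.3 CPM with Pam3 (2.54, SE 0.139, adjusted p = 2.58e-13), while its means without Pam3 were 2.46 CPM untreated and 0.34 CPM with TGFβ. Acod1 had means of 9.72 ± 2.79 CPM untreated and 0.534 ± 0.199 CPM with TGFβ, and of 55.7 ± 4.08 and 132 ± 16.1 CPM in the Pam3 and Pam3+TGFβ groups (each ± the SD of 3 libraries). The ranking of the groups was thus the same in Ereg and Acod1, lowest with TGFβ alone and highest with both. The direction within each condition follows from how the genes were chosen. Cd69, an activation antigen, rose from 6.81, 4.78 and 4.92 to 16.8, 14.2 and 13 CPM with Pam3 and had an effect of −3.32 without, and Gem, a small GTPase, was at 3 counts or fewer in every Pam3 library and at 1.02, 0.696 and 0.881 CPM with Pam3+TGFβ, at least 9.08-fold higher.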

How the data were processed

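RNA abundance was measured by RNA sequencing in 12 libraries, of which 6 enter the comparison described. Per the submitters' processing notes, the authors used Bowtie2 2.4.1, featureCounts of Subread 2.0.0, DESeq2 1.36.0, R 4.2.1, bcl2fastq 2.20.0 and FastQC 0.11.7, with the genome build GRCm39. The deposited table holds raw read counts per gene, and a further deposited table holds the authors' normalized signal, in which each library's counts were divided by 1 constant. The annotation, the strand setting of the counting and the treatment of reads that match several genes are not given in the sources used here, so overlapping, antisense and near-identical genes are uncertain, and an aligner without splicing can miss reads across exon junctions.

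Counts of 40847 genes were read (17090 had no count). Genes were kept by edgeR's filterByExpr with a minimum count of 10, which left 14749, scaled by TMM and tested with edgeR 4.0.16 (R 4.3.3, limma 3.58.1) by the quasi-likelihood F test with robust dispersions, with all 12 libraries in a fit of 4 group means and Benjamini-Hochberg adjustment over the genes tested. The SE is the log2 fold change divided by the square root of F. A fold against a group with 3 counts or fewer in every library is a lower bound, computed against 3 counts in the shallowest library of that group. This floor was 0.0953 CPM for Pam3 and 0.0873 CPM for Pam3+TGFβ, and it covers counting error only. Between replicates of a group, the chi-square of the counts divided by its degrees of freedom was 9.99 to 220, above sampling noise, so each library counts once. With simulated counts for 14487 genes, 200 of them changed, the comparison of Pam3+TGFβ with Pam3 recovered 99 of 100 genes changed by 2 and 81 of 100 changed by 1 on the log2 scale, and called 10 unchanged genes. The changed genes were drawn from those above a minimum mean count, as many up as down. Far fewer changed than the 45.3% called in the data, so genes with low counts and scaling under such wide change were not covered.

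The rule for named genes took the 15 called genes per direction with the largest log2 change and no overlap, up to 4 called and the most abundant members per list, the 12 largest interactions among genes with opposite calls, the 5 largest gains and losses in CPM, and genes of the receptors and cytokines central to the treatment. Parts of it are given as counts, and other named members were chosen after their values were seen. The comparison, its 41 gene lists and the named members were chosen with earlier results of these data known. Positions come from GENCODE M39 on GRCm39, matched for 13486 tested genes (91.4%), and promoters from RefSeq on GRCm38.p6. Alternatives covered other scalings, filters, a replicate block, a minimum fold, the 6 libraries alone, each library left out, DESeq2 1.42.0 and limma on log2 of the normalized signal plus 1. A mitochondrial term, Pam3 replicate 1 alone in its group and protein-coding genes alone were added after seeing the data. Some genes that the rule names are not reported here.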

Additional observations from a re-analysis of the deposited data

Results flagged for a closer look

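The effect of TGFβ differed between cells with and without Pam3, by the interaction test in edgeR, for 12 genes chosen as the largest such differences among genes with effects called in opposite directions. A gene with effects called in the same direction, Ccl2, differed by 5.6, more than most of them. The difference of the log2 effects, with Pam3 minus without, was 9.14 for Gem, which had 3 counts or fewer in every Pam3 library, so that the fitted value is no bound. It was 6.57 for Cxcl10, 5.81 for Cxcl3, 5.41 for Acod1, 5.4 for Ereg, 5.22 for Tnfsf15 and 5.06 for Il6. It was 4.92 for Inhba, 4.75 for the predicted gene Gm34643, 4.73 for Cd69, 4.7 for Cxcl2 and 4.6 for Tgtp2, a GTPase with a near-identical copy. The call of Gm34643 with Pam3 was lost without replicate 1 of Pam3 or replicate 3 of Pam3+TGFβ (adjusted p = 0.0532 and 0.0527), and that of Cxcl2 is given with the chemokines. In all, 228 genes that TGFβ raised where Pam3 was given were lowered where it was not, and 47 genes had the opposite pattern.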

How the results depend on the processing

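With a minimum log2 fold change of 1 built into the test, 981 genes were called, 348 higher and 633 lower. Under the other settings the number of genes called in the comparison stayed within 1.5 times of 6679. It was 6708 with DESeq2-type size factors, 6632 with upper-quartile scaling, 6796 by DESeq2, 6723 by limma, 6967 in the fit of the 6 libraries and 5984 to 7085 with each of the 12 libraries left out. With the mitochondrial share as a term it was 6279, and with Pam3 replicate 1 as the sole library of its group, which is then assumed to vary like the other groups, 4734. The interaction was called for 1902 to 2430 genes with each of the 12 libraries left out, 2577 by DESeq2 and 2277 by limma, against 2352. Whether replicate numbers pair the libraries could not be settled with 3 libraries per group. The residuals of same-numbered libraries correlated at 0.13, 0.02 and 0.03, and those of other pairs at −0.09 to 0.06. Pam3 replicates 2 and 3 correlated best with Pam3+TGFβ replicates 3 and 2. The fit with the replicate block called 6736 genes, 3211 higher and 3525 lower. Of 275 called genes named in the text, 267 kept the call in every setting without a minimum fold that tested them. The others were Cxcl2, Gm34643, Il6, Mx1, Smad4, Tgfb1, Tgtp2 and Tirap, of which Cxcl2 also lost it with the mitochondrial term and, as did Smad4, with no filter, and Il6, Mx1, Tgfb1, Tgtp2 and Tirap lost it with Pam3 replicate 1 alone in its group and in no other such setting. The replicate block changed the call of Cxcl2 alone among them. Requiring at least 10 counts in each of the 12 libraries removes genes near 0 in any group, with or without Pam3. It gave medians of −0.666 for CC chemokines (5 called), 1.174 for CXC chemokines (4 called), −0.067 for chemokine and cytokine receptors, −0.723 for MHC class II, 0.1 for alveolar transcription factors, −0.412 for other macrophage markers (11 called), 0.413 for TGFβ ligands and receptors, −0.342 for matrix genes (15 called), −0.107 for scavenger receptors, 0.033 for lipid efflux and storage and −0.399 for lysosomal genes. The lysosomal median was −0.436 with upper-quartile and −0.409 with DESeq2-type scaling. Leaving out each library of the comparison in turn gave medians of 1.141 to 1.343 for antiviral genes, 0.078 to 0.143 for interferon sensing, 0.053 to 0.245 for immediate early genes, 0.659 to 0.926 for CXC chemokines, 0.638 to 0.902 for cytokines, −0.856 to −0.654 for MHC class II, −0.427 to −0.182 for scavenger receptors, 0.019 to 0.134 for fatty acid oxidation and −0.427 to −0.401 for lysosomal genes. The causes of these shifts were not tested. The interactions given gene by gene in the text (26 genes) kept their call in each of 19 alternatives that gave an adjusted p. Ifnb1 and Nos2 were under the count filter and were tested only with no filter.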
